A study of Homo sapiens with 4 samples.

Results

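Eukaryotic translation initiation factors are the proteins that bring the small ribosomal subunit, the initiator tRNA and a capped mRNA together and position the ribosome at the start codon. The genes described here are those whose symbol begins with EIF and a digit from 1 to 6, contains no hyphen, and whose counts over the 4 libraries summed to 40 or more. Of 20263 genes in the table, 56 carried such a symbol and 52 met the count threshold, which is not based on any difference between groups. All libraries were made from the line MDA-MB-231, which was established from a human breast tumour of the triple-negative kind. Exposure to RB-1, described in the title of the series as derived from the CDK4 and CDK6 inhibitor ribociclib, lasted 24 h, and DMSO cells were grown and collected likewise without RB-1, in the solvent. The dose is not stated in the labels, both groups grew in the same serum-containing medium, and each group had 2 libraries from this 1 line.

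Initiation begins when eIF2, a complex of alpha, beta and gamma subunits, carries the initiator tRNA to the small subunit, helped by eIF1, eIF1A, eIF3 and eIF5. The eIF4F complex (the cap-binding protein eIF4E, the scaffold eIF4G and the RNA helicase eIF4A) recruits the mRNA, and eIF5B then joins the large subunit. Cells turn initiation down mainly through the following controls: the kinases EIF2AK1 to EIF2AK4 phosphorylate the alpha subunit of eIF2, which blocks its exchange factor eIF2B and favours translation of the stress regulator ATF4, and the 4E-BP proteins hold eIF4E away from eIF4G. Overactive initiation, eIF4E in particular, is well known in breast cancer. The measurements here are of transcripts only.

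Library totals ran from 34122874 to 37754168 counts. Over all 13612 genes tested, 1702 were higher and 2149 lower in RB-1 by the F test of edgeR (quasi-likelihood, Benjamini-Hochberg adjusted, threshold 0.05), which is 28.3% of them. All 52 initiation factor genes were among those tested. The markers expected of the line were high: VIM, CD44, AXL, MSN and CAV1 lay between 316 and 5422 CPM (counts scaled to TMM library size) in every library. The epithelial cadherin CDH1 had at most 2 counts in a library and ESR1 at most 0.659 CPM, while EPCAM (9.46 to 13.5 CPM) and ERBB2 (57.3 to 77.2 CPM) were measurable. GATA3, a luminal marker, had 2.25 and 3.18 CPM in RB-1 cells, against 9.69 and 21.85 CPM in DMSO cells, and its part in the results was not tested. Of the markers of other cell types, DCN and KRT14 had 0 counts in all libraries and PTPRC no more than 0.631 CPM. PECAM1 lay at 0.702 to 1.18 CPM, and COL1A1 was measurable at 4.73 to 8.09 CPM. In RNA from whole cultures a change in the share of cells that make a transcript and a change in its amount per cell cannot be told apart. Whether replicate libraries stem from separate cultures is not stated in the labels, so p-values measure only the spread between these libraries, which may be technical.

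After RB-1, more initiation factor transcripts fell than rose, and the large proteins of the machinery stood on the falling side. Of the 52 genes, 15 fell (28.85%), against 15.8% of all tested genes, and 6 rose (11.54%), against 12.5%. With upper-quartile scaling the split was 11 lower and 7 higher, where 13.3% of all tested genes were lower and 15.7% higher. The steepest falls were EIF5B, EIF3A and EIF4G3, at 5.87-fold, 4.15-fold and 3.13-fold lower, and the largest rises were EIF4A1 and EIF1, at 2.42-fold and 2.36-fold higher. The median log2 fold change was -0.32, against 0.01 over all tested genes. In 42 of the 52 genes (15 higher, 27 lower) the RB-1 and DMSO values did not overlap, which is 80.8% of them (28.8% higher, 51.9% lower). This was so for 69.7% of all tested genes (35.3% higher, 34.3% lower), so the members exceeded the background on the lower side and not on the higher side, as a description.

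**Figure D1:**
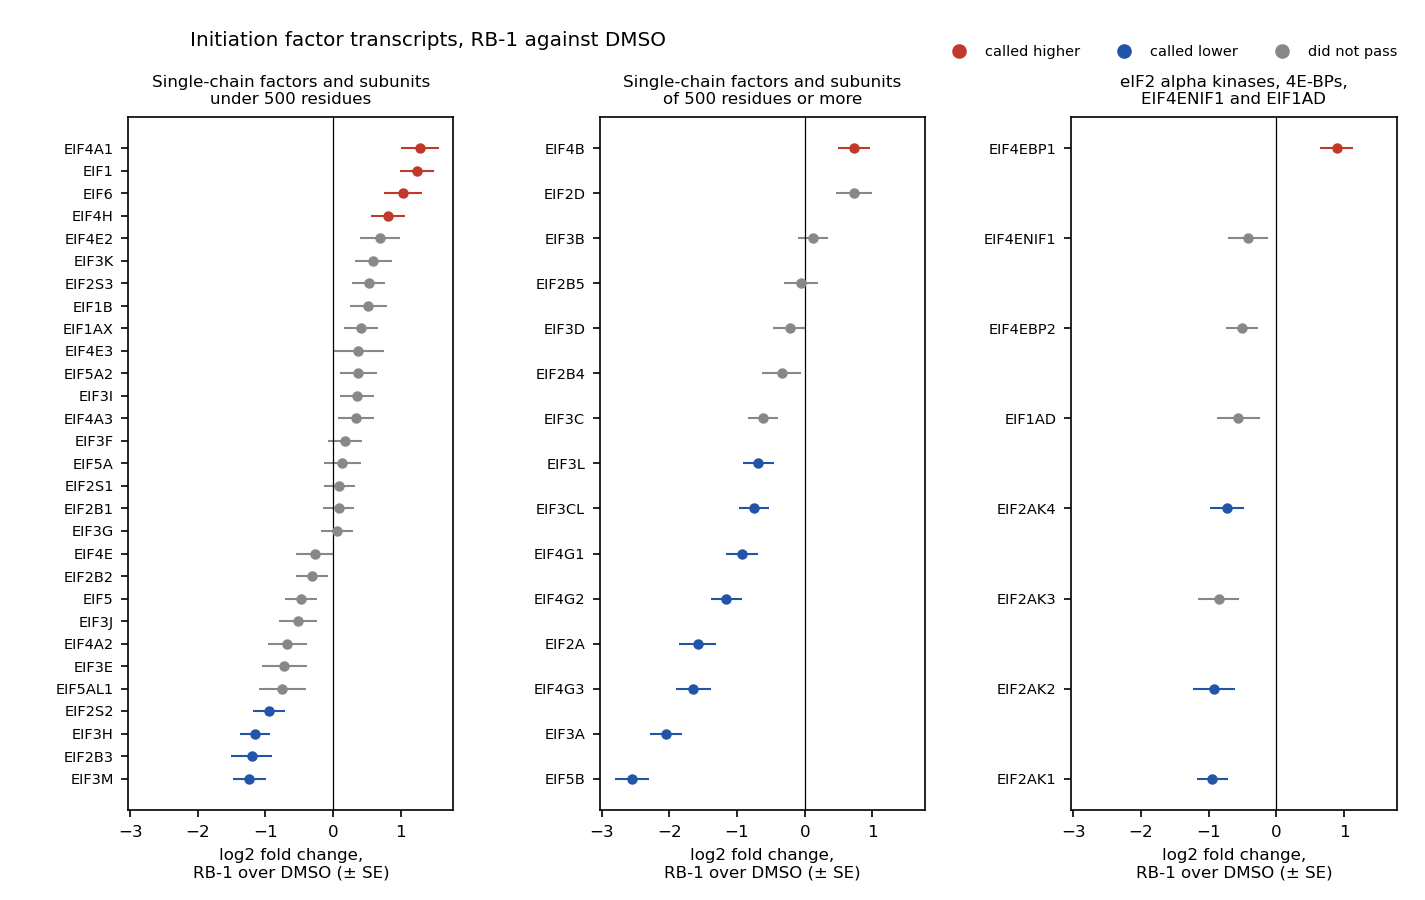
Log2 fold change of each of the 52 initiation factor genes, RB-1 over DMSO, with its standard error from edgeR's fit of 2 libraries per group; red and blue points passed an adjusted p of 0.05. Most of the blue points, 8 of 15, lie in the middle panel of subunits and factors of 500 residues or more, and 4 of the 6 red points lie in the left panel of those under 500 residues.

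The members were then divided by the length of the protein that they encode, leaving the kinases and other regulators aside. Of 15 subunits and single-chain factors of 500 residues or more, 8 fell, 1 rose and 6 did not pass, with a median log2 fold change of -0.69. Of 29 under 500 residues, 4 fell, 4 rose and 21 did not pass, with a median of 0.14. All coding genes in the table showed a difference of the same kind: those of 500 residues or more had a median of -0.35 with 26.9% lower and 5.61% higher, and those under 500 residues a median of 0.29 with 6.54% lower and 18.3% higher. The small factors therefore had a lower median than small genes in general, and the large factors a lower median than large genes in general, as a description and without a test. Across the 52 genes the log2 fold change ran against protein length with a Spearman coefficient of -0.55, and across 13557 tested coding genes with one of -0.43. These points share the same 4 libraries, and genes are not independent replicates. Library differences also ran with length: in the RB-1 pair, the median log2 ratio of replicate 1 to replicate 2 was 0.18 for the small factors, -0.12 for the large ones and -0.52 for the kinases, and the part of this in the results was not tested.

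**Figure D2:**
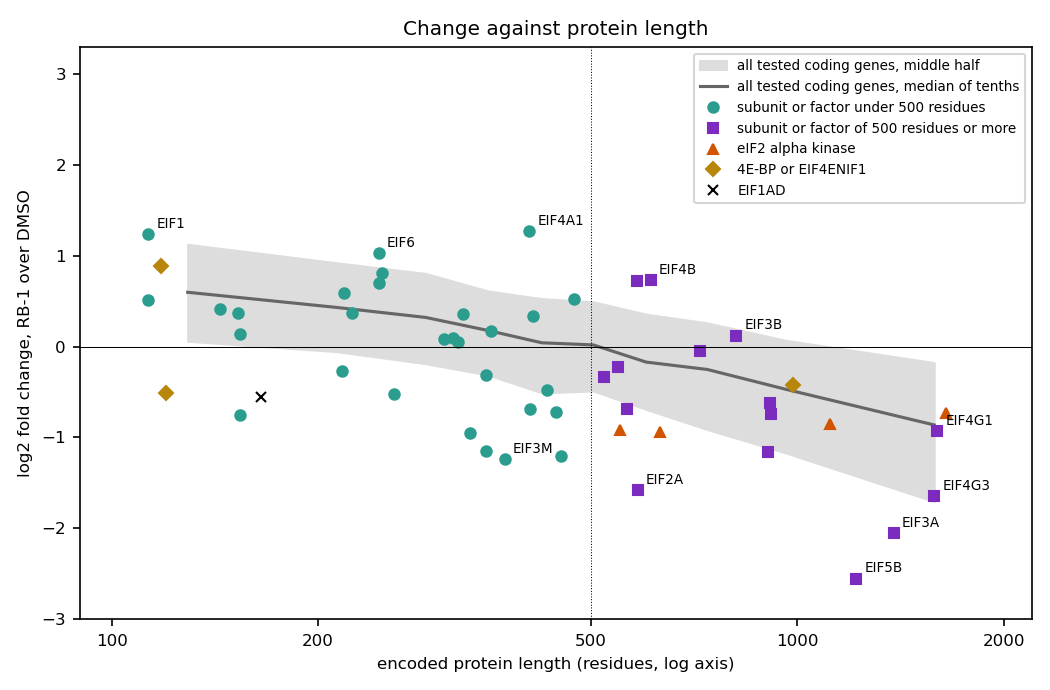
Log2 fold change (RB-1 over DMSO) against encoded protein length on a log axis, for the 52 initiation factor genes (symbols by class) and for all tested coding genes (line, median of bins that hold about equal numbers of genes; grey, interquartile range). The line runs from 0.60 in the bin with the shortest proteins to -0.86 in the bin with the longest. Measured against the interquartile range of the bin that holds each gene, 17 of the 52 genes lie below, among them EIF5B, EIF3A, EIF2A, EIF3H and EIF3M. Another 6 lie above (EIF1, EIF6, EIF4A1, EIF4B, EIF2D and EIF2S3). By construction the lowest quartile of all tested coding genes lies below such a range and the highest above it. The band is drawn between bin medians, so points near its edges or left of its start can look otherwise.

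When the fit was corrected for transcript length and GC content, the median of the large factors stayed negative. That of the small factors turned slightly negative, although more of them were then called higher than lower. The medians of large and small factors were -0.85 and -0.07. Of 15 large factors 10 were lower and 1 higher. Of 29 small factors 5 were lower and 9 higher, against 4 lower and 4 higher before the correction. In that fit 17.7% of all tested genes were lower and 14.4% higher. Of all coding genes of 500 residues or more, 25.2% were then lower and 9.51% higher, with a median of -0.21, and of those under 500 residues 11.5% were lower and 18.5% higher, with a median of 0.11. Without RB-1 replicate 1 the median of the small factors was -0.0094, so its direction rested on that library, while the median of the large factors was -0.57.

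**Figure D3:**
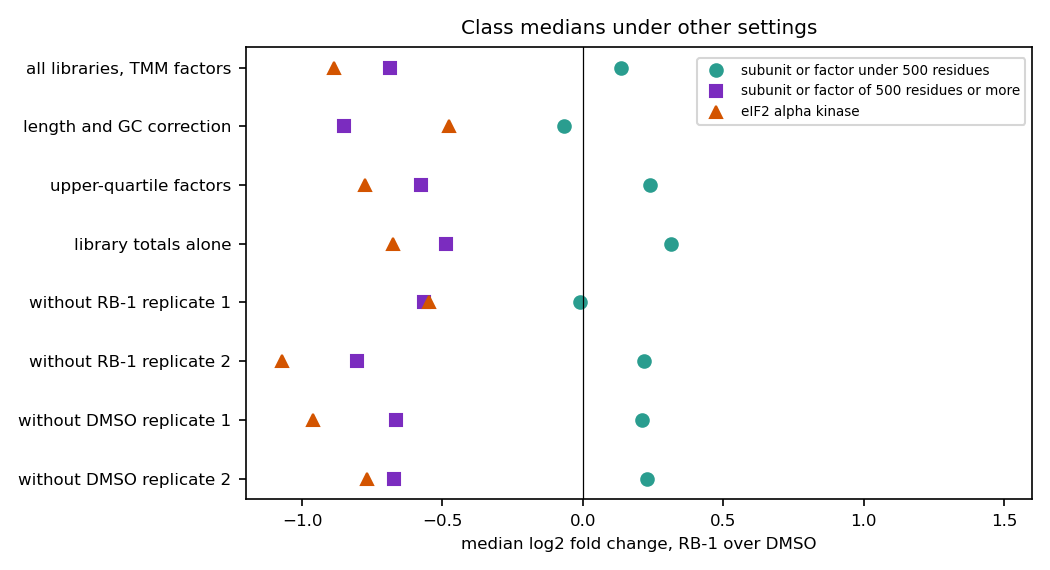
Median log2 fold change (RB-1 over DMSO) of 29 small factors, 15 large factors and 4 eIF2 alpha kinases, with all libraries and under other settings. The large factors stay between -0.85 and -0.49 and the kinases between -1.07 and -0.48, while the small factors lie between -0.07 and 0.31.

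EIF5B encodes the GTPase that joins the ribosomal subunits. It had 35.5 and 46.3 CPM in RB-1 cells, against 249.6 and 230.6 CPM in DMSO cells (40.9 ± 7.69 and 240.1 ± 13.4 CPM, SD, n = 2 each). Both RB-1 libraries were far below both DMSO libraries. The log2 fold change was -2.55 ± 0.25 SE (edgeR adjusted p = 0.000259), the largest change of any of the 52 genes in either direction. About 10.8% of its exon bases overlap REV1 on the opposite strand.

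Among the other genes of subunit joining and start site selection, EIF6 and EIF1 rose and the rest did not pass. EIF6 keeps the large ribosomal subunit from joining too early. It had 506.4 and 296.2 CPM in RB-1 cells, against 204.2 and 188.8 CPM in DMSO cells, and rose (1.03 ± 0.28, edgeR adjusted p = 0.0203). Its call was lost with the length and GC correction (0.30, adjusted p = 0.262), without RB-1 replicate 1 (0.60, adjusted p = 0.139), without DMSO replicate 1 (1.09, adjusted p = 0.0654) and without DMSO replicate 2 (0.997, adjusted p = 0.117). EIF6 shares 19.5% of its 50-base stretches with AL121753.1, a gene model that overlaps it on the same strand, so its count is uncertain. EIF1, which guards start codon choice, had 1083 and 806 CPM in RB-1 cells, against 356.7 and 444.4 CPM in DMSO cells. The RB-1 libraries lay clear above the DMSO libraries, and EIF1 rose (1.24 ± 0.25, edgeR adjusted p = 0.00570), the only one of the 6 rises that kept its call in each of 13 alternative settings. Its relative EIF1B (0.52 ± 0.27, adjusted p = 0.178) and EIF1AX, which encodes eIF1A (0.42 ± 0.25, adjusted p = 0.233), had positive values that did not pass, EIF1AX doing so with the length and GC correction (0.75, adjusted p = 0.0396). EIF5, the activator of the eIF2 GTPase (-0.47, adjusted p = 0.1555), EIF5A, which relieves stalled ribosomes (0.14, adjusted p = 0.739), and EIF5A2 (0.37, adjusted p = 0.330) did not pass either, except EIF5A2 with the correction (0.74, adjusted p = 0.0410). EIF5AL1, an EIF5A copy at 3.05 to 5.86 CPM, had -0.75 (adjusted p = 0.126), and since 31.7% of the 50-base stretches of EIF5A occur elsewhere, mostly in EIF5AL1, both are uncertain.

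Of the genes of the eIF4F complex and their relatives, all 3 eIF4G scaffold genes fell. Of coding genes of 500 residues or more 26.9% were lower, and of all tested genes 15.8%. All 3 scaffold genes lay inside the interquartile range of coding genes of like protein length. EIF4G3 had 45.04 and 63.7 CPM in RB-1 cells, against 180.5 and 160.2 CPM in DMSO cells (-1.65 ± 0.26, edgeR adjusted p = 0.00200). EIF4G2, the relative that works without the cap-binding protein, had 354.3 and 453.2 CPM in RB-1 cells, against 915.1 and 884.7 CPM in DMSO cells (-1.16 ± 0.23, adjusted p = 0.00575). EIF4G1, the main scaffold, had 738.6 and 718.4 CPM in RB-1 cells, against 1208 and 1564 CPM in DMSO cells (-0.93 ± 0.24, adjusted p = 0.0160). In each of the 3 genes the RB-1 libraries were below the DMSO libraries with no overlap, as in 34.3% of all tested genes. EIF4G1 did not pass when either RB-1 library was left out (-0.95 with adjusted p = 0.0812 without replicate 1, and -0.91 with adjusted p = 0.0550 without replicate 2), nor without DMSO replicate 2 (-0.71, adjusted p = 0.153). EIF4E itself did not pass: it had 40.7 and 57.5 CPM in RB-1 cells, against 62.6 and 55.3 CPM in DMSO cells (-0.26 ± 0.28, adjusted p = 0.511), with overlapping groups. With the length and GC correction EIF4E was at 0.75 (adjusted p = 0.0195), the opposite sign. That correction rests on 1 transcript per gene, of 11520 bases for EIF4E, 9949 for EIF4E3 and 10040 for EIF2AK2. Other transcript choices were not tried. EIF4E2, a cap-binding relative (0.70, adjusted p = 0.0993), and EIF4E3, the member with the fewest counts (0.37, adjusted p = 0.482), did not pass, although EIF4E3 did with the length and GC correction (1.27, adjusted p = 0.0209).

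The row of the helicase EIF4A1 and those of both of its cofactors, EIF4B and EIF4H, passed as higher, but the value of EIF4A1 is uncertain. EIF4A1 had 488.4 and 298.3 CPM in RB-1 cells, against 183.0 and 141.8 CPM in DMSO cells (1.28 ± 0.28, edgeR adjusted p = 0.00895). The table also has a row for SENP3-EIF4A1, a read-through gene that joins EIF4A1 to its neighbour. That row ran the other way, at 112.7 and 110.5 CPM in RB-1 cells, against 226.4 and 246.7 CPM in DMSO cells (-1.08 ± 0.23, adjusted p = 0.00686). Added together, the 2 rows gave 601.1 and 408.8 CPM in RB-1 cells, against 409.5 and 388.6 CPM in DMSO cells, and the groups then overlapped. All 50-base stretches of the EIF4A1 transcript also occur in other gene models. Most of them, 91.7%, occur in AC016876.2, which is not part of this sum. How the counting divided these reads decides the value of EIF4A1, and its rise is uncertain.

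EIF4H had 1080 and 732.5 CPM in RB-1 cells, against 542.8 and 486.4 CPM in DMSO cells (0.82 ± 0.25, edgeR adjusted p = 0.0339). EIF4B had 343.8 and 405.9 CPM in RB-1 cells, against 250.2 and 201.7 CPM in DMSO cells (0.73 ± 0.23, adjusted p = 0.0394). It was the only factor of 500 residues or more that rose, and the groups did not overlap in either gene. EIF4A1, EIF4B and EIF4H did not pass without RB-1 replicate 1 (0.88, 0.85 and 0.52; adjusted p = 0.0601, 0.0618 and 0.201) or without DMSO replicate 2 (1.13, 0.61 and 0.76; adjusted p = 0.0779, 0.247 and 0.184). EIF4B and EIF4H also did not pass without DMSO replicate 1 (0.89 and 0.90; adjusted p = 0.0768 and 0.0924), nor EIF4B without RB-1 replicate 2 (0.61, adjusted p = 0.105). About 30.6% of the 50-base stretches of EIF4B and 13.8% of those of EIF4H occur in other gene models, mostly processed copies. The second helicase gene, EIF4A2, had 123.9 and 166.7 CPM in RB-1 cells, against 290.5 and 175.3 CPM in DMSO cells (-0.68 ± 0.29, adjusted p = 0.1002), and EIF4A3, whose protein serves the exon junction complex rather than initiation, had 0.33 (adjusted p = 0.369).

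**Figure D4:**
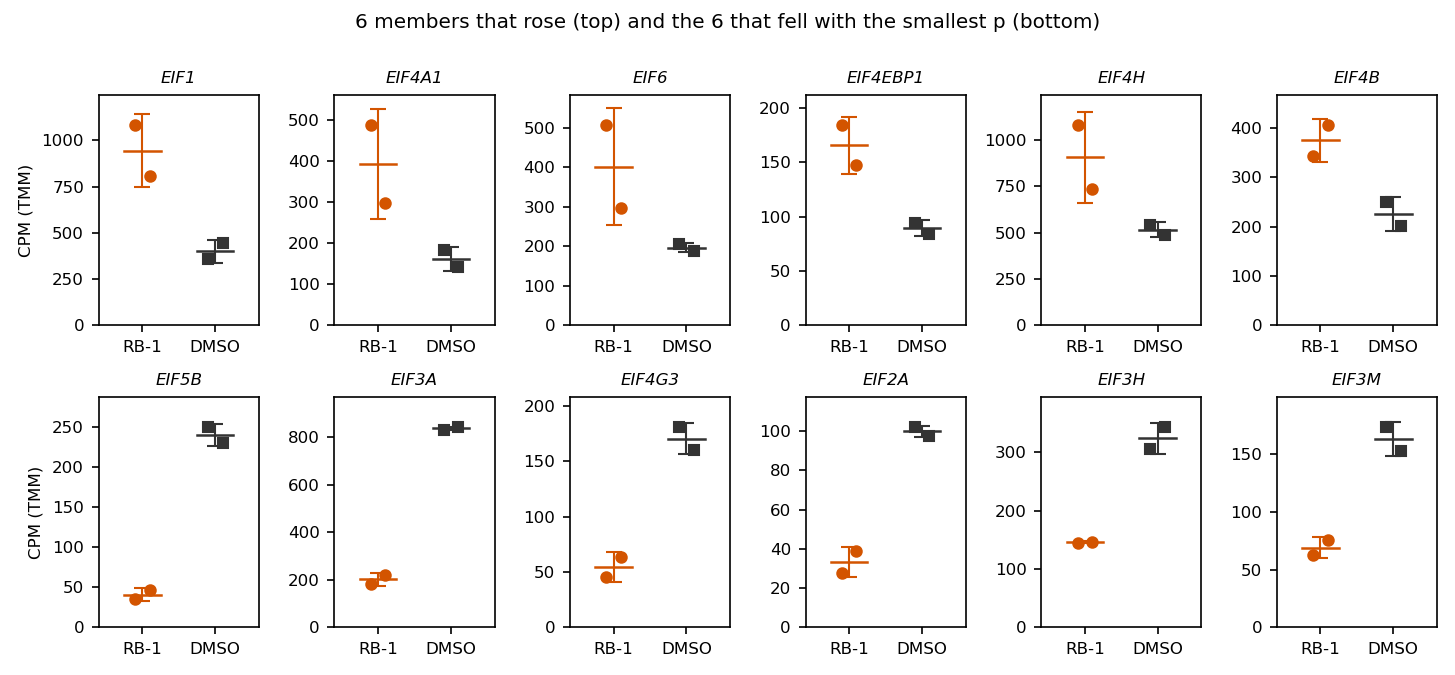
Normalised expression (CPM on TMM library sizes) of the 6 initiation factor genes that rose, top, and the 6 that fell with the smallest p, bottom; each point is 1 library, bars are mean and SD of n = 2, RB-1 left and DMSO right. In each of the 12 genes the RB-1 libraries lie entirely above or entirely below the DMSO libraries. The genes were picked by p in these same libraries, and 69.7% of all tested genes have groups that do not overlap. EIF4A1, EIF6 and EIF4H have RB-1 libraries far apart, at 488.4 and 298.3, 506.4 and 296.2, and 1080 and 732.5 CPM.

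The subunits of eIF3, the largest initiation factor, fell in part. Of 14 genes, counting both EIF3C and its copy EIF3CL, 5 fell, none rose by edgeR and 9 did not pass. This is 35.7% lower, against 15.8% of all tested genes, and 0% higher, against 12.5%. The median log2 fold change of the 14 was -0.57. At an unadjusted p under 0.05, EIF3C was added to the lower genes and none to the higher ones, and DESeq2 also called none higher. The summed level of the 14 rows was 2498 and 2482 CPM in RB-1 cells, against 3705 and 3863 CPM in DMSO cells. All the falls lay in the octamer of a, c, e, f, h, k, l and m, the structural core of human eIF3. EIF3A, the largest subunit, had 182.6 and 220.5 CPM in RB-1 cells, against 830.9 and 840.5 CPM in DMSO cells (-2.05 ± 0.23, edgeR adjusted p = 0.000417). EIF3M had 62.5 and 75.5 CPM in RB-1 cells, against 173.6 and 152.6 CPM in DMSO cells (-1.24 ± 0.24, adjusted p = 0.00506). EIF3H had 144.5 and 147.0 CPM in RB-1 cells, against 305.2 and 343.2 CPM in DMSO cells (-1.15 ± 0.22, adjusted p = 0.00498). EIF3M and EIF3H encode proteins of 374 and 352 residues, so the falls were not limited to the largest subunits.

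EIF3L fell by 0.69 on the log2 scale (edgeR adjusted p = 0.0447) and is uncertain, since 42.0% of its 50-base stretches occur in other gene models. EIF3CL fell by 0.75 (adjusted p = 0.0292) and EIF3C had -0.62 (adjusted p = 0.0573), passing with the length and GC correction (-0.77, adjusted p = 0.0144). These 2 genes are near-identical, with 96.8% of the 50-base stretches of EIF3C found in EIF3CL, so each count alone is uncertain. Their sum was 400 and 431 CPM in RB-1 cells, against 648.8 and 682.8 CPM in DMSO cells. Both calls were lost when RB-1 replicate 1 (EIF3L -0.57, adjusted p = 0.171; EIF3CL -0.69, adjusted p = 0.114), DMSO replicate 1 (-0.66, 0.163; -0.80, 0.0895) or DMSO replicate 2 (-0.69, 0.179; -0.67, 0.175) was left out. They were also lost with upper-quartile factors (-0.58, 0.0809; -0.64, 0.0534) and with library totals alone (-0.49, 0.168; -0.55, 0.108). EIF3E had 124.1 and 258.2 CPM in RB-1 cells, against 346.5 and 284.2 CPM in DMSO cells (-0.72, adjusted p = 0.127), and fell without RB-1 replicate 2 (-1.34, adjusted p = 0.0124). EIF3K (0.59, adjusted p = 0.130) did not pass, except without RB-1 replicate 2 (0.89, adjusted p = 0.0292), and neither did EIF3F (0.18, adjusted p = 0.631). Outside the octamer, EIF3B, EIF3G and EIF3I, which with part of EIF3A form the module closest to yeast eIF3, had 0.12, 0.06 and 0.36, and EIF3D, a cap-binding subunit, and EIF3J, a loosely bound one, had -0.22 and -0.52. None of these 5 passed (edgeR adjusted p from 0.185 to 0.882; 0 at an unadjusted p under 0.05 and 0 by DESeq2). With the length and GC correction EIF3G was at -0.67 (adjusted p = 0.0255), and EIF3B, EIF3F, EIF3I and EIF3K also changed sign (-0.10, -0.42, -0.12 and -0.11). That the octamer differs from the other subunits was not tested.

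Among the genes that deliver the initiator tRNA, the beta subunit of eIF2 fell and the other subunits did not pass. EIF2S2, which encodes eIF2 beta, had 171.4 and 196.7 CPM in RB-1 cells, against 391.3 and 318.6 CPM in DMSO cells (-0.95 ± 0.23, edgeR adjusted p = 0.0137). EIF2S1, which encodes eIF2 alpha, had 188.2 and 192.9 CPM in RB-1 cells, against 193.2 and 164.8 CPM in DMSO cells (0.09 ± 0.23, adjusted p = 0.791). EIF2S3, which encodes eIF2 gamma, had 137.5 and 151.8 CPM in RB-1 cells, against 111.2 and 90.2 CPM in DMSO cells (0.52 ± 0.24, adjusted p = 0.124). Only EIF2S1 had groups that overlapped, and EIF2S3 lay higher in both RB-1 libraries. EIF2S2 and EIF2S3 share 22.6% and 23.2% of their 50-base stretches with copies elsewhere. The call of EIF2S2 was lost without RB-1 replicate 1 (-0.84, adjusted p = 0.0738), without DMSO replicate 1 (-0.79, adjusted p = 0.0941) and with library totals alone (-0.76, adjusted p = 0.0567). With the length and GC correction EIF2S1 (0.61, adjusted p = 0.0431) and EIF2S3 (0.77, adjusted p = 0.0133) passed as higher.

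EIF2A, a separate protein that can deliver initiator tRNA outside the eIF2 route, had 27.8 and 38.8 CPM in RB-1 cells, against 101.9 and 97.6 CPM in DMSO cells. Both RB-1 libraries were well below, and EIF2A fell (-1.58 ± 0.28, edgeR adjusted p = 0.00317). EIF2D, another such protein, had 96.7 and 82.8 CPM in RB-1 cells, against 61.1 and 47.2 CPM in DMSO cells. Its groups did not overlap, but the difference did not pass (0.73 ± 0.27, adjusted p = 0.0622), except with upper-quartile factors (0.83, adjusted p = 0.0344) and DESeq2 (0.72, adjusted p = 0.0425). Of the 5 subunits of eIF2B, the exchange factor that reloads eIF2 with GTP, EIF2B3 (the gamma subunit) fell, at 11.2 and 8.87 CPM in RB-1 cells, against 24.5 and 21.7 CPM in DMSO cells (-1.202 ± 0.30, adjusted p = 0.0149). With either DMSO library left out EIF2B3 did not pass (-1.11 with adjusted p = 0.109 without replicate 1, and -1.265 with adjusted p = 0.0833 without replicate 2), and 10.2% of its exon bases overlap CCNB1IP1P1 on the opposite strand. The other subunits, EIF2B1, EIF2B2, EIF2B4 and EIF2B5, had 0.08, -0.31, -0.34 and -0.05 (adjusted p from 0.350 to 0.893), and EIF2B4 passed as lower with the length and GC correction (-0.79, adjusted p = 0.0191).

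The kinases of eIF2 alpha all had lower values in RB-1 cells, and 3 of the 4 passed. All 4 encode proteins of 500 residues or more, and 26.9% of such coding genes were lower, against 15.8% of all tested genes. EIF2AK1 and EIF2AK2 lay below the interquartile range of coding genes of like protein length, and EIF2AK3 and EIF2AK4 inside it. EIF2AK1, the kinase that senses haem shortage and mitochondrial stress, had 132.3 and 135.9 CPM in RB-1 cells, against 237.4 and 278.1 CPM in DMSO cells (-0.94 ± 0.23, edgeR adjusted p = 0.0128). EIF2AK2, the double-stranded RNA sensor PKR, had 54.8 and 106.1 CPM in RB-1 cells, against 145.6 and 159.3 CPM in DMSO cells (-0.92 ± 0.31, adjusted p = 0.0499). EIF2AK4, the amino acid sensor GCN2, had 75.1 and 102.5 CPM in RB-1 cells, against 147.0 and 147.0 CPM in DMSO cells (-0.73 ± 0.25, adjusted p = 0.0497). EIF2AK3, the kinase PERK of the endoplasmic reticulum, had 19.6 and 29.6 CPM in RB-1 cells, against 41.6 and 47.1 CPM in DMSO cells (-0.85 ± 0.30, adjusted p = 0.0580). In all 4 genes every RB-1 library was below every DMSO library, as in 34.3% of all tested genes. For EIF2AK2, EIF2AK3 and EIF2AK4 RB-1 replicate 1 was the lower of its pair.

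The calls of EIF2AK2 and EIF2AK4 sat close to the threshold, and that of EIF2AK1 lay further from it (edgeR adjusted p = 0.0128). For EIF2AK2, upper-quartile factors ended the call (-0.81, adjusted p = 0.0840), and it did not pass with library totals alone (-0.71, adjusted p = 0.136), with the length and GC correction (-0.05, adjusted p = 0.877), or without RB-1 replicate 1 (-0.52, adjusted p = 0.215), DMSO replicate 1 (-0.99, adjusted p = 0.108) or DMSO replicate 2 (-0.83, adjusted p = 0.209). EIF2AK4 did not pass under the same 6 settings (-0.62, -0.53, -0.44, -0.52, -0.73 and -0.71; adjusted p = 0.0879, 0.174, 0.104, 0.210, 0.170 and 0.213) nor with limma-voom (-0.75, adjusted p = 0.0504). EIF2AK1 did not pass without RB-1 replicate 1 (-0.92, adjusted p = 0.0600) or without DMSO replicate 2 (-0.80, adjusted p = 0.116). EIF2AK3 did pass without RB-1 replicate 2 (-1.18, adjusted p = 0.0245), with DESeq2 (-0.86, adjusted p = 0.0277) and with no count filter (-0.85, adjusted p = 0.0498), and 14.4% of its exon bases overlap AC104134.1 on the opposite strand. The median of the 4 kinases, -0.89, lay below that of the large factors (-0.69) and above it with the length and GC correction (-0.48, against -0.85). Without RB-1 replicate 1 the 2 medians were -0.55 and -0.57, so the order of kinases and large factors depended on that correction and on that library.

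Of the inhibitors of eIF4E, EIF4EBP1 rose and EIF4EBP2 did not pass. EIF4EBP1, which encodes 4E-BP1, had 184.5 and 147.3 CPM in RB-1 cells, against 94.5 and 84.4 CPM in DMSO cells, and rose 1.85-fold (0.89 ± 0.24, edgeR adjusted p = 0.0206). EIF4EBP2 had 135.0 and 133.9 CPM in RB-1 cells, against 168.9 and 213.6 CPM in DMSO cells (-0.51 ± 0.23, adjusted p = 0.127), and was at 0.16 (adjusted p = 0.622) with the length and GC correction. EIF4EBP3 had 2 and 4 counts in RB-1 cells, against 9 and 2 counts in DMSO cells, 17 in all, and lay below the count threshold, as did EIF2S3B with 22, while EIF1AY and EIF4E1B had 0, which allows up to 3 counts in each. The lowest genes above the threshold were EIF4E3 with 426 counts and EIF5AL1 with 651. The call of EIF4EBP1 was lost with the length and GC correction (0.11, adjusted p = 0.692), without RB-1 replicate 1 (0.73, adjusted p = 0.0882), without DMSO replicate 1 (0.97, adjusted p = 0.0743) and without DMSO replicate 2 (0.83, adjusted p = 0.1435). EIF4ENIF1, which carries eIF4E into the nucleus, had -0.42 (adjusted p = 0.317), and EIF1AD, named for an eIF1A-like domain and not known as an initiation factor, had -0.56 (adjusted p = 0.216).

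**Figure D5:**
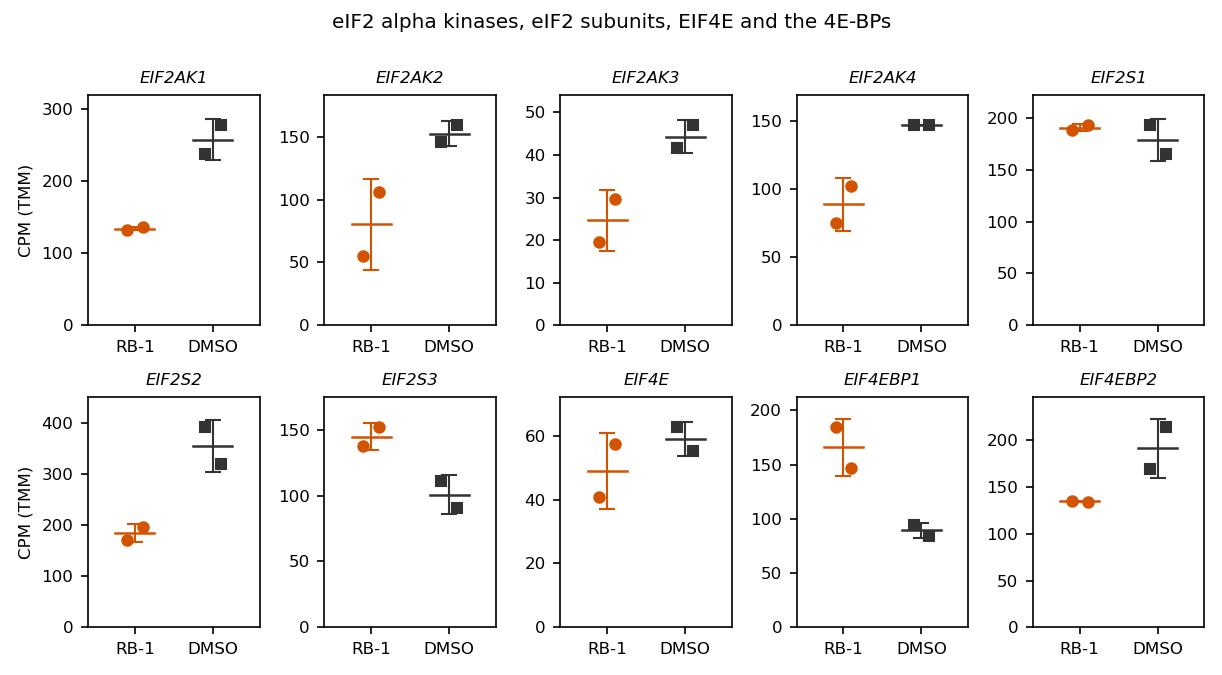
Normalised expression (CPM on TMM library sizes) of the eIF2 alpha kinases, the eIF2 subunits, EIF4E and 2 of the 4E-BPs; each point is 1 library, bars are mean and SD of n = 2, RB-1 left and DMSO right. The 4 kinases and EIF2S2 lie lower in RB-1, EIF4EBP1 lies higher, and EIF2S1 and EIF4E overlap.

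The other translation genes on a list of 42, from cap-binding and helicase partners to elongation and termination factors, gave 7 lower (16.7%, against 15.8% of all tested genes), 3 higher (7.14%, against 12.5%) and 32 that did not pass, with a median log2 fold change of 0.085. The share that fell was thus at the background, and the genes below are single cases. DDX3X, an RNA helicase that aids initiation on structured mRNAs, averaged 30.9 ± 2.05 CPM in RB-1 cells and 251 ± 70.0 CPM in DMSO cells (SD, n = 2 each), and was 8.12-fold lower (-3.02 ± 0.28, edgeR adjusted p = 0.000176). ABCE1, which recycles ribosomes, averaged 41.3 ± 3.31 CPM in RB-1 cells and 129.6 ± 0.361 CPM in DMSO cells (-1.65 ± 0.25, adjusted p = 0.00151). DHX29, a helicase of the small subunit (-2.03), and NCBP1, the large subunit of the nuclear cap-binding complex (-1.60), fell as well. The rises were MCTS1 (1.38 ± 0.33, adjusted p = 0.0127), EEF1E1 (1.25 ± 0.31, adjusted p = 0.0141) and the elongation factor EEF1G (0.73 ± 0.24, adjusted p = 0.0424). MCTS1 acts with DENR, which did not pass (0.20, adjusted p = 0.536). The main elongation factors EEF1A1 (0.19) and EEF2 (0.17), and the eIF2 phosphatase subunits PPP1R15A (0.40) and PPP1R15B (0.07), did not pass (adjusted p from 0.250 to 0.859). Leaving out RB-1 replicate 1 or DMSO replicate 2 left 0 of the list higher by edgeR, where 5.08% and 2.76% of all tested genes were higher, and leaving out RB-1 replicate 2 gave 6, where 13.9% were.

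The bases just before the start of each gene were also read for 3 motifs, since members of the eIF4 group moved in both directions. RefSeq windows (GRCh38.p14) were at hand for 43 of the 52 genes, and only the 250 bases before each start were used. The E-box CACGTG, the site that MYC-MAX and USF proteins bind, occurred on either strand in 11 of the 43 genes (25.6%), against 10.97% of 10870 tested genes with a window. It was present in 2 of 5 genes that rose, 3 of 9 that fell and 6 of 29 that did not pass. The ETS core CCGGAA or its reverse complement TTCCGG occurred in 16 of 43 (37.2%), against 29.1%, and the ATF4 type composite TGATGNAA, on either strand, in 1 of 43 (2.33%), against 2.26%. The motifs do not overlap one another in the windows printed. These counts describe letters and show no binding. Shown here are EIF4G1, a faller with a pair of E-boxes (first of its 3 annotated starts, chr3:184314356-184314605, plus strand), EIF4H and EIF4B, both risers with 1 E-box each (chr7:74174106-74174355 and chr12:53006206-53006455, plus strand), and EIF2A, a faller with a pair of ETS cores and no E-box (chr3:150546537-150546786, plus strand). Capitals mark the motifs.
EIF4G1: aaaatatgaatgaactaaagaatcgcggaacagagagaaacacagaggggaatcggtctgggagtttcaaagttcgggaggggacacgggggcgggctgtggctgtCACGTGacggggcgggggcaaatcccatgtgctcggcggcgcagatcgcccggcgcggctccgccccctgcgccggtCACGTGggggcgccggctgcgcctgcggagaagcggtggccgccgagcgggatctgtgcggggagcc
EIF4H: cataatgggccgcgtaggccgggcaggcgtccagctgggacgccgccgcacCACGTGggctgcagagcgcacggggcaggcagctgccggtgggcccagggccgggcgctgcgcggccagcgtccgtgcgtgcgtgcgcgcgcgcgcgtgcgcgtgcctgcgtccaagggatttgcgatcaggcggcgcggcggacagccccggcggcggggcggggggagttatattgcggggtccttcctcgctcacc
EIF4B: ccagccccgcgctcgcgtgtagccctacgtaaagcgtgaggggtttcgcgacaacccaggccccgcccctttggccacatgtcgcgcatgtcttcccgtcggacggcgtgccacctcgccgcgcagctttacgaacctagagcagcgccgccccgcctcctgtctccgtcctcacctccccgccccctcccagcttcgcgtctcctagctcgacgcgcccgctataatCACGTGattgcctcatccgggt
EIF2A: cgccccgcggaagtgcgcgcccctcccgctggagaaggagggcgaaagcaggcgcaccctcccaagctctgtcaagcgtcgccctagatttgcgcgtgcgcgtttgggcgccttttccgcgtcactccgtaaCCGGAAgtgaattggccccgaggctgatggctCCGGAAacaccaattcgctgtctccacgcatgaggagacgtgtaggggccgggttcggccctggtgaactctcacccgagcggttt
E-boxes thus stood upstream of genes that rose and of genes that fell.

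Across the alternatives, 8 of the 21 called genes kept their call in each of 13 settings run for single genes. These were EIF1, which rose, and EIF5B, EIF3A, EIF4G3, EIF2A, EIF3H, EIF3M and EIF4G2, which fell. The share of all called genes that kept their call was not computed, so this describes single genes and not the members as a group.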

How the data were processed

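RNA was measured in 4 libraries of MDA-MB-231 cells, 2 with RB-1 and 2 with DMSO, per the labels. The authors deposited raw counts per gene for 20263 human Ensembl IDs, not normalised and not pooled. No source used here names the aligner, the counter or a strand setting, and the builds in the submitters' processing notes are of the mouse, so no coordinates of the counts are printed. Symbols matched 20148 IDs.

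In R 4.3.3 with edgeR 4.0.16, the filterByExpr rule kept 13612 genes, which were scaled by TMM (factors 0.868 to 1.10) and tested by edgeR's quasi-likelihood F test with robust estimation, two-sided, with Benjamini-Hochberg adjustment over all genes and a threshold of 0.05. Standard errors were obtained as log2 fold change over root F. Replicates differed beyond sampling noise (chi-square per degree of freedom 128 for RB-1 and 257 for DMSO), so all were kept. The fit was tested on simulated data. Protein length, transcript length, GC content, exon overlap and shared 50-base stretches came from GENCODE v29 principal transcripts, since the RefSeq proteins planned for the size split of 500 residues were not used here. The members, the lists and the size split were chosen with earlier results of these data known. Values per library were given for the kinases, the 4E-BPs, the eIF2 subunits and the 6 called members with the smallest p in each direction, and for others named after their values were seen. From the translation list the 4 called members with the smallest p in each direction were named, and others after their values were seen. Alternatives were RLE, upper-quartile and no scaling factors, other count filters, DESeq2 1.42.0, limma-voom 3.58.1, the replicate number as a block, a length and GC correction by splines, and leaving out each library. Standard errors and SDs include the spread between these libraries, and the floor of up to 3 counts covers counting error only.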

Additional observations from a re-analysis of the deposited data

How the results depend on the processing

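With 2 libraries per group, depth limits little and the spread between libraries limits most calls. Members higher numbered 6 and members lower 15, where 12.5% and 15.8% of all tested genes were called. An adjusted p under 0.01 left 2 higher and 7 lower. The share of all tested genes under 0.01 was not computed, so these counts have no background beside them. The length and GC correction gave 10 higher, where 14.4% of all tested genes were higher. Leaving out 1 library gave 1 to 6 higher and 8 to 16 lower. In these fits 2.76% to 13.9% of all tested genes were higher and 7.86% to 17.3% lower. Both shares lay below those with all libraries, except without RB-1 replicate 2, so the smaller member counts came with fewer calls over all genes. In the translation list, where these alternatives were added after seeing the data, 3 were higher, against 6 with upper-quartile factors, 5 with no count filter, 5 with the length and GC correction, 5 with DESeq2, 0 at an adjusted p under 0.01, and 0 to 6 without 1 library. Its lower count, 7, stayed between 6 and 9 with all libraries in the fit. Over all tested genes 15.7% were higher with upper-quartile factors and 11.2% with no count filter. The length and GC correction gave 14.4% higher and DESeq2 14.0%. With all libraries, and apart from the stricter threshold, 10.1% to 17.7% of all tested genes were lower.

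The median of the small factors was 0.14, and 0.24 with upper-quartile factors, 0.31 with library totals alone, -0.0668 with the length and GC correction and -0.0094 to 0.23 without 1 library. That of the large factors was -0.69, and -0.58, -0.49 and -0.85 under the same settings, -0.84 when split at 600 residues, and -0.80 to -0.57 without 1 library. That of the kinases was -0.89, and -0.48 with the length and GC correction and -1.07 to -0.55 without 1 library. Upper-quartile factors and library totals alone shifted the median of all genes by 0.10 and 0.20, and relative to it the large factors stood at -0.69 and -0.70 and the small ones at 0.12 and 0.11.

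Signs turned for the following genes, none of them called in the reported fit, and the cause was not tested. With the length and GC correction these were EIF3B (-0.10), EIF3F (-0.42), EIF3G (-0.67), EIF3I (-0.12), EIF3K (-0.11), EIF4A3 (-0.0668), EIF4E (0.75), EIF4EBP2 (0.16), EIF5 (0.18) and EIF5A (-0.47). EIF2B5 was at 0.047 with upper-quartile factors and 0.14 with library totals alone. Without 1 library, EIF2B1 ranged from -0.0094 to 0.17, EIF2B5 from -0.279 to 0.147, EIF3B from -0.0468 to 0.275, EIF3D from -0.451 to 0.0672, EIF3F from -0.0304 to 0.423, EIF3G from -0.0933 to 0.237, EIF4A3 from -0.0012 to 0.611 and EIF5A from -0.275 to 0.46.

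The replicate numbers share no stated source, and deviations of same-numbered libraries correlated at -0.096 over 13612 genes. With the replicate number as a block, 6 members were higher and 15 lower, where 12.6% and 16.8% of all tested genes were. EIF3L then lost its call (-0.69, edgeR adjusted p = 0.0561) and EIF3E gained one (-0.81, adjusted p = 0.0323).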
